A study of Mus musculus with 6 samples.

Results

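Chemokines are small secreted proteins that direct cell movement by binding G protein-coupled receptors on the cells they attract. They are named by the spacing of their first cysteines (CC, CXC, XC and CX3C), and tumour cells are a known source of several that draw monocytes, T cells or neutrophils. The genes described here were all probes whose target name on the array follows the numbered CC or CXC ligand or receptor nomenclature, plus Xcl1, Cx3cl1, Xcr1 and Cx3cr1. This rule gave 72 probes for 52 gene names, of 45281 probes and 30854 names on the array. They comprised 20 CC ligands (27 probes), 13 CXC ligands (21 probes), 2 ligands of the other classes (2 probes) and 17 receptors (22 probes). The array name Cxcl4 stands for Pf4 (platelet factor) and Cxcr7 for the atypical receptor Ackr3.

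MC38r, a mouse colorectal cancer line made resistant by continuous exposure to EPA (the long-chain omega-3 lipid eicosapentaenoic acid), was set against MC38, the sensitive line. Per the series description the IC50 of EPA was 6-fold higher in MC38r. Neither line is described as treated at harvest: the culture medium for each was RPMI with foetal calf serum. The comparison is therefore taken to be of basal expression. Total RNA of each line was read on 3 Illumina MouseWG-6 bead arrays. The labels do not say whether these 3 were separate cultures, so p-values measure only a spread between samples, which may be technical. With 1 line of each kind, resistance cannot be told apart from any other difference between the lines. No strain, sex or age is given for either line.

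A probe counts as above background on an array where its detection p, from the array's negative control beads, was under 0.01, and this held for 28.97% to 30.52% of all probes on the MC38r arrays and 28.35% to 30.14% on the MC38 arrays. All 6 arrays lay on 1 chip, the lines on separate sections, so position and line cannot be told apart. Housekeeping control signals ran from 10270 to 10670 on the MC38r arrays and from 11550 to 12860 on the MC38 arrays. Some technical controls were also lower on the MC38r arrays without overlap. Biotin staining ran from 5450 to 6171 on MC38r arrays and from 6241 to 7268 on MC38 arrays. In the same order, Cy3 hybridization (3001 to 3184, 3263 to 3558) and low-stringency hybridization (2300 to 2434, 2495 to 2720) did so too. Labelling controls (76.67 to 82.4, 78.47 to 80.03) and negative controls (81.08 to 84.76, 82.62 to 84.4) overlapped between the lines. The part of these control differences in the results below was not tested. Of 9 epithelial markers 7, Epcam, Cdh1, Krt18 and Krt19 among them, were not above background on any array, Krt8 was on 1 array of each line, and Cdx2 was on each MC38r array and no MC38 array. Markers of cells that make or sense chemokines were mostly not above background on any array. This held for all 7 lymphocyte markers, Cd3e among them. Of 9 myeloid markers 2, Cd68 and S100a8, were above it on at least 1 array, and Ptprc, Adgre1 and Csf1r were not. Cd68 was above background on 1 MC38r array and 3 MC38 arrays, and fell in MC38r (log2 change -0.64). S100a8 was above it on 1 array of each line. The summed deposited signal of the myeloid list was 6.3 to 13.7 on the MC38r arrays and -5.1 to 35.6 on the MC38 arrays, and that of the lymphocyte list 0.7 to 46.2 on the MC38r arrays and -18.6 to 12.8 on the MC38 arrays. Of 5 endothelial markers 1, Kdr, was above background, on 1 MC38 array.

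The promoters shown here are those of tested members in which a search found a motif of interferon or NF-kappaB response, the best-known controls of chemokine transcription. The sequences are from RefSeq (GRCm38.p6) and cover the 250 bases before the annotated start, 5′ to 3′ on the gene's strand. The chromosome is 5 for Cxcl10 and Cxcl1 and 11 for Ccl9. Capitals mark matches on either strand to the core of the interferon-stimulated response element (GAAA, any 2 bases, GAAA), or to the kappaB motif, and overlapping matches run together.
Cxcl10, chr5.0:92348890-92349139, minus strand: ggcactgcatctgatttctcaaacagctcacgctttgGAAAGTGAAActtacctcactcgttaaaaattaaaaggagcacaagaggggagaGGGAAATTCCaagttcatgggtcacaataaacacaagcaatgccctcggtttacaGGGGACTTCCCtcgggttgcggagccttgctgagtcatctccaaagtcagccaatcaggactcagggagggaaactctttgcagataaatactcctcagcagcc
Cxcl1, chr5.0:90890995-90891244, plus strand: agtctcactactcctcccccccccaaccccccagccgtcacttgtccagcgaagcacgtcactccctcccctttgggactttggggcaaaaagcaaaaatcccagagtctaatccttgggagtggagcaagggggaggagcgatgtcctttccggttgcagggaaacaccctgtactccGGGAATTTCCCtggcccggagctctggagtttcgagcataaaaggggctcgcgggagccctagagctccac
Ccl9, chr11.0:83578637-83578886, minus strand: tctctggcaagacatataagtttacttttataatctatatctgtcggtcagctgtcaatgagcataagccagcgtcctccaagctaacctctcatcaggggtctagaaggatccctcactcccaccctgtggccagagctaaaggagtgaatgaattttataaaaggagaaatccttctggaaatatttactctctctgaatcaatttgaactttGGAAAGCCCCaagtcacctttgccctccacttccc

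Of the 12 genes tested below, 7 had promoters in the RefSeq table: Cxcl10, Cxcl1, Ccl9, Cxcl12, Cx3cl1, Ccl25 and, for the array name Ccl27, Ccl27a. The Cxcl10 window held 1 response element core, GAAAGTGAAA, 213 to 204 bases before the start. It also held 4 kappaB matches counted over both strands, 1 of them 159 to 150 bases before the start and the other 3 overlapping in the run 104 to 94 bases before it. The Cxcl1 window held 2 overlapping kappaB matches, 71 to 61 bases before the start, and the Ccl9 window held 1 on the opposite strand. Neither motif was found in the windows of Cxcl12, Cx3cl1, Ccl25 or Ccl27a. Of all 32851 promoter windows of this length in the table, 2.98% held the response element core and 7.25% the kappaB motif. Such matches describe letters and not binding.

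In MC38r cells Ccl2 and its relative Ccl7 were not above background, while both were clearly present in MC38. Ccl5, Ccl4, Ccl25, Cxcl10 and Cxcl16 were higher in MC38r, and Ccl9, Ccl27, Cxcl12 and Cxcl1 were lower. No chemokine receptor was above background in either line. In all, 7 of the 52 genes were detected on each of the 3 MC38r arrays and 10 on each of the 3 MC38 arrays, and every one of these was a ligand. The 7 were Ccl4, Ccl5, Ccl25, Cxcl1, Cxcl10, Cxcl16 and Cx3cl1, and the 10 were Ccl2, Ccl5, Ccl7, Ccl9, Ccl25, Ccl27, Cxcl1, Cxcl10, Cxcl12 and Cx3cl1. Thus 5 ligands were detected in both lines, 2 in MC38r alone and 5 in MC38 alone.

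**Figure D1:**
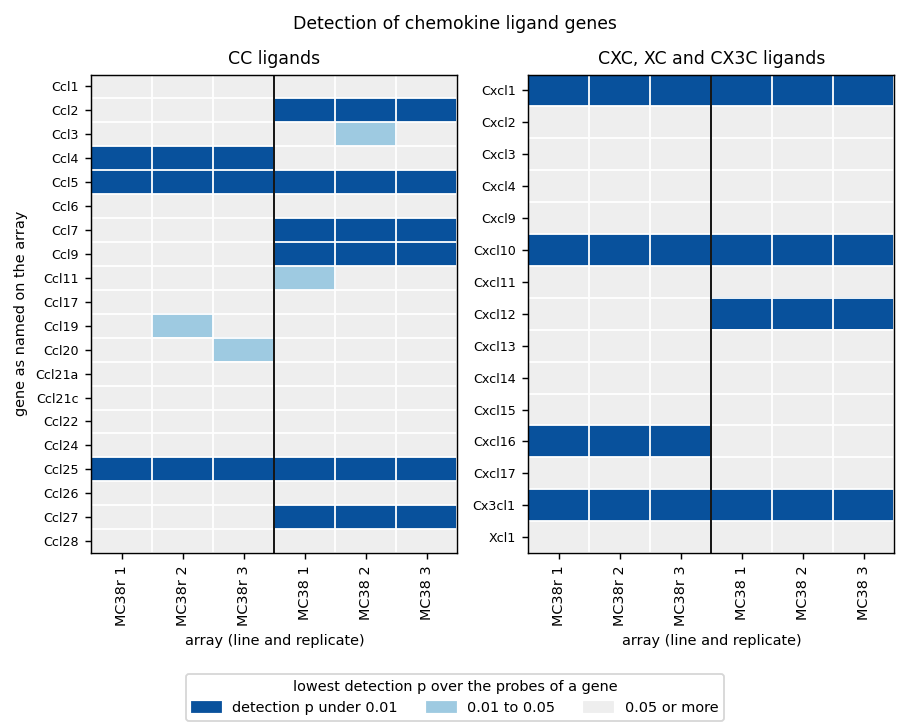
Detection of each ligand gene (rows, as named on the array) on each array (columns, MC38r then MC38), by the lowest detection p over the probes of the gene. Dark cells, under 0.01, occur in 12 ligand rows.

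Of the 72 probes, 15, for 12 genes, were above background on at least 3 arrays and were tested, and 57 were not tested. On the tested probes 6 rose and 8 fell in MC38r, and 1 did not pass. Over all 13990 probes tested, 55.1% passed, 28.1% upward and 27.0% downward. Because 9 of the 15 were above background in 1 line alone, they had to differ to enter the test, and the count of members is not evidence about the family. Of the 6 member probes detected on all 6 arrays, 4 rose, 1 fell and 1 did not pass, where 52.0% of all such probes passed. Lines did not overlap for 14 of the 15 probes, against 61.5% of all probes tested. The median log2 change of the 15 probes was -0.65, and that of all probes tested 0.035.

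Below, deposited signals are linear, background-subtracted intensities given in the order of replicates 1 to 3, and means are normalized log2 signals ± SD over 3 arrays. A fold change is MC38r over MC38 of the normalized signals. Where a probe stayed within background throughout 1 line, the fold is a bound, "at least", set against the faintest signal that passed detection on that array, a log2 value of 5.19 to 5.36. Beside a bound, the adjusted p is that of the fitted change and not of the bound. Such probes entered the test through 1 line alone, so that p-value is not independent support for a difference. Signals of different probes are not compared with each other, since a probe's brightness depends on its sequence.

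**Figure D2:**
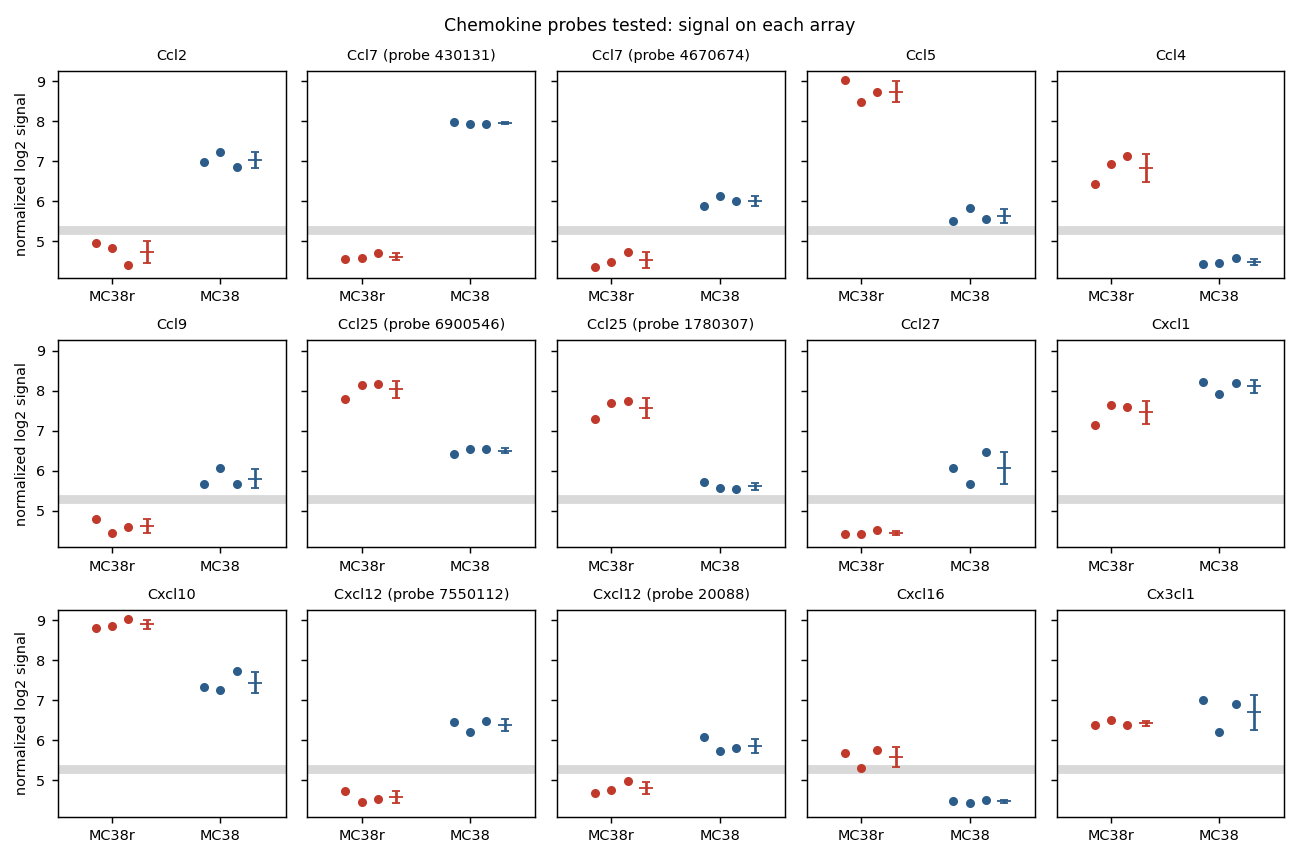
Normalized log2 signal (y axis) of the 15 tested probes on each array, MC38r left and MC38 right in each panel. Points are arrays, bars beside them the mean ± SD (n = 3), and the grey band the range over arrays of the lowest signal above background, 5.19 to 5.36. The lines overlap in the Cx3cl1 panel alone.

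Ccl2 (MCP-1), the best-known monocyte chemoattractant, had deposited signals of 14.1, 10.5 and -5.6 on the MC38r arrays, against 110.9, 136 and 99.8 on the MC38 arrays. All 3 MC38r values were within background and all 3 MC38 values far above it. Its mean was 4.73 ± 0.28 in MC38r and 7.03 ± 0.2 in MC38, so it fell by at least 3.45-fold (adjusted p = 5.3e-06). The fitted log2 change was -2.3 with a standard error of 0.18.

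Ccl7, a close relative of Ccl2 that shares its receptor, changed in the same direction on both of its probes. The brighter read 1.2, 2.3 and 6.9 in MC38r, against 237.4, 227.2 and 229 in MC38. Its mean was 4.61 ± 0.08 in MC38r and 7.95 ± 0.03 in MC38, and it fell by at least 6.53-fold (adjusted p = 4.2e-08). The dimmer probe read -10.2, -1.8 and 7.8 in MC38r and 43, 54 and 48.4 in MC38, and fell by at least 1.69-fold (adjusted p = 3e-05). The 2 bounds differ because the dimmer probe starts closer to background, and neither gives the true size of the fall.

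The other relatives were not above background. Ccl11, eotaxin, which attracts eosinophils, reached 22.8 on MC38 replicate 1 by its brighter probe but missed the detection limit, against at most 9.7 on an MC38r array. Ccr2, the receptor of Ccl2 and Ccl7, lay between -15.5 and 0.8 on the MC38r arrays and between -13.6 and -11.4 on the MC38 arrays, all within background. A further probe, under the older array name Cmkbr2, was not above background either. Ccl8 and Ccl12 were not analysed here. In the RefSeq annotation Ccl2, Ccl7, Ccl11, Ccl12, Ccl8 and Ccl1 form an unbroken run of 6 chemokine genes, and Ccl2 and Ccl7 at one end of it were the 2 that could be tested.

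Ccl5 (RANTES), which attracts T cells and monocytes and is a known interferon- and NF-kappaB-responsive gene, had the largest fitted rise among the tested members. It read 502.4, 338.8 and 411.2 in MC38r, against 29.8, 41.5 and 31.1 in MC38. The MC38 arrays were above background by little, and the lowest MC38r array was several times the highest of them. Its mean was 8.74 ± 0.27 in MC38r and 5.63 ± 0.18 in MC38, an 8.63-fold rise (adjusted p = 5.9e-07).

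Ccl4 (MIP-1 beta), which attracts monocytes and T cells, appeared in MC38r alone. Its brighter probe read 70.5, 107.3 and 124.1 in MC38r, against -4.6, -3.9 and 2.1 in MC38. It rose by at least 2.92-fold (6.83 ± 0.36 in MC38r and 4.48 ± 0.08 in MC38, adjusted p = 6e-06). A dimmer probe was above background on 2 MC38r arrays and on no MC38 array (11.9, 23.2 and 31.7 against -4.9, 6.4 and 5.2), and was not tested. Ccl3, the neighbour and closest relative of Ccl4, was not above background on any array.

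Ccl9, which in the mouse binds Ccr1 and attracts myeloid cells, went the opposite way. It read 9.6, -4.2 and 3.3 in MC38r, against 35, 51.1 and 35 in MC38, so that it was at background in MC38r and modestly above it in MC38. It fell by at least 1.47-fold (4.61 ± 0.18 in MC38r and 5.8 ± 0.23 in MC38, adjusted p = 0.00022). In the RefSeq annotation Ccl5, Ccl9, Ccl6, Ccl3 and Ccl4 are an unbroken run of 5 genes. The members at its ends, Ccl5 and Ccl4, rose, Ccl9 fell, and Ccl6 and Ccl3 were not above background.

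Ccl25 (TECK), known for drawing T cells to thymus and small intestine through Ccr9, was above background on every array by both probes. The brighter read 206.9, 269.2 and 270.6 in MC38r, against 69.8, 77.1 and 77.1 in MC38, and the other 140.5, 192.8 and 199.6 against 36.5, 31.7 and 31.1. The 2 probes rose 2.91-fold (8.04 ± 0.21 in MC38r and 6.5 ± 0.07 in MC38, adjusted p = 2e-05) and 3.93-fold (7.58 ± 0.25 and 5.61 ± 0.09, adjusted p = 6.5e-06), and on neither did the lines overlap.

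Ccl27, a skin-associated ligand of Ccr10, was lower in MC38r by 1 of its 2 probes. That probe read -6, -6 and -0.6 in MC38r, against 51.3, 35 and 73.1 in MC38, and it fell by at least 1.77-fold (4.44 ± 0.06 in MC38r and 6.07 ± 0.4 in MC38, adjusted p = 1e-04). The MC38 arrays spread widely for this probe. The other probe was not above background on any array. RefSeq holds the near-identical copies Ccl27a and Ccl27b, and which of them the probes read is uncertain.

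Cxcl10 (IP-10), the interferon-induced ligand of Cxcr3 whose promoter is printed above, was present in both lines. It read 431.1, 453.2 and 508.2 in MC38r, against 144, 137.4 and 197.4 in MC38. The lowest MC38r array was well above the highest MC38 array. Its mean was 8.9 ± 0.12 in MC38r and 7.44 ± 0.26 in MC38, a 2.76-fold rise (adjusted p = 5.5e-05). A second probe of Cxcl10 was not above background on any array, nor were Cxcl9 and Cxcl11, the other ligands of Cxcr3.

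Cxcl1 (KC), the neutrophil attractant that binds Cxcr2, was lower in MC38r by a smaller amount. It read 125.4, 183.7 and 178.3 in MC38r, against 281.5, 228.3 and 277.7 in MC38, with no overlap between the lines. The means were 7.46 ± 0.28 in MC38r and 8.11 ± 0.16 in MC38, a 1.57-fold fall (adjusted p = 0.009), which did not pass an unmoderated test (adjusted p = 0.052). Its neighbours Cxcl2, Cxcl3, Cxcl15 and Cxcl4 were not above background on any array.

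Cxcl12 (SDF-1), the ligand of Cxcr4 and Ackr3 that stromal cells are known to make, was above background in MC38 alone. The brightest of its 5 probes read 8, -3.2 and 0.8 in MC38r, against 72.6, 57.7 and 72.7 in MC38. It fell by at least 2.2-fold (4.58 ± 0.15 in MC38r and 6.38 ± 0.15 in MC38, adjusted p = 6.6e-06). A further probe fell by at least 1.54-fold (adjusted p = 0.00026), with readings of 6.4, 8.6 and 14.6 in MC38r and 51.6, 37.1 and 40 in MC38. The remaining 3 probes were not above background on any array. Of 6 fibroblast markers Pdgfra and Dcn rose in MC38r, Pdgfrb fell, Col1a1 did not pass, and Lum and Thy1 were not above background. Their summed deposited signal was 476.1 to 586.5 on the MC38r arrays and 287.9 to 306.8 on the MC38 arrays. How these markers relate to Cxcl12 was not tested.

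Cxcl16, a membrane-bound ligand of Cxcr6 that is released by shedding, was near the limit of detection. It read 36.1, 23.5 and 38.5 in MC38r, against -1.6, -4.9 and -1.1 in MC38. It rose by at least 1.23-fold (5.58 ± 0.25 in MC38r and 4.47 ± 0.04 in MC38, adjusted p = 0.00023), and its second probe was not above background.

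Cx3cl1 (fractalkine), the other membrane-bound chemokine, read 67.3, 74.9 and 67.8 in MC38r, against 113.5, 57.6 and 103.4 in MC38. The lines overlap because MC38 replicate 2 lies under all 3 MC38r arrays. The means were 6.42 ± 0.07 in MC38r and 6.7 ± 0.44 in MC38, a log2 change of -0.28 with a standard error of 0.21 (adjusted p = 0.28). Without MC38 replicate 2 the change was -0.53 and passed (adjusted p = 0.0072), so the call rests on that array.

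**Figure D3:**
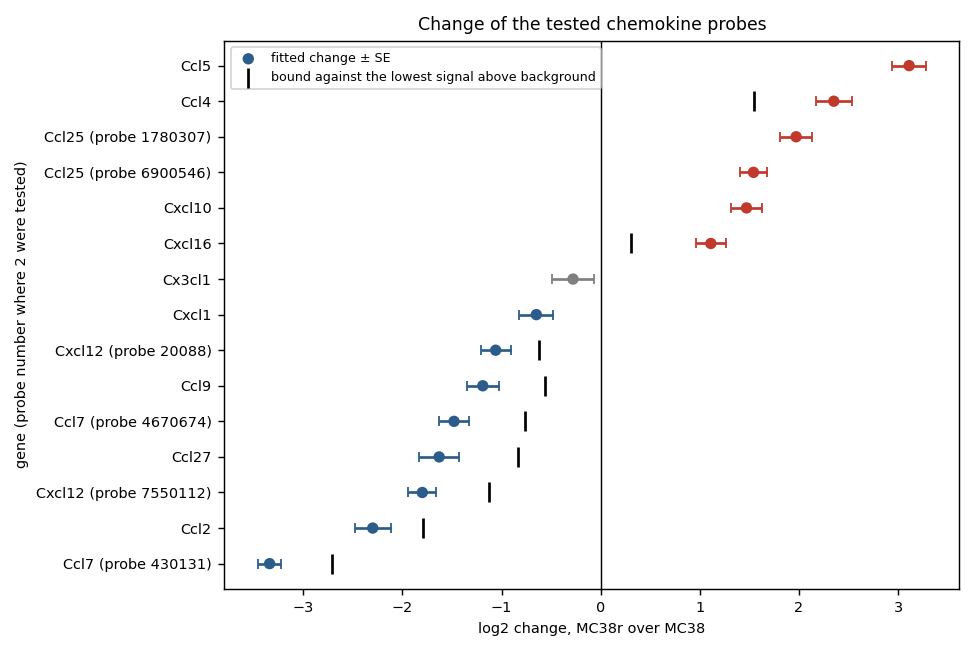
Log2 change, MC38r over MC38 (x axis), of the 15 tested probes, with the fitted value ± SE as a point and, where a line was at background, the bound as a vertical tick. Red points rose, blue points fell and the grey point did not pass. Fitted changes run from -3.34 for Ccl7 to 3.11 for Ccl5.

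The receptors were at background throughout. Deposited signals of the 22 probes of 17 receptors were 20.5 or less on every array, and none had a detection p under 0.01. They include known receptors of ligands that changed: Ccr2 for Ccl2 and Ccl7, Ccr1 for Ccl9, Ccr9 for Ccl25, Ccr10 for Ccl27, Cxcr3 for Cxcl10, Cxcr4 and Cxcr7 for Cxcl12, and Cxcr6 for Cxcl16. Probes under the older names Il8ra and Il8rb, for Cxcr1 and Cxcr2, were not above background either. When all 45281 probes were fitted with limma, no receptor probe passed or had an unadjusted p under 0.05 (log2 changes of -0.15 to 0.16, smallest adjusted p = 0.36), and an unmoderated test gave 1 with an unadjusted p under 0.05 and none after adjustment. Such readings bound what these probes can see and do not show that the transcripts are absent.

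The remaining 23 ligands were likewise not above background on any array. Among the CC ligands these were Ccl1, Ccl3, Ccl6, Ccl11, Ccl17, Ccl19, Ccl20, Ccl21a, Ccl21c, Ccl22, Ccl24, Ccl26 and Ccl28. Among the others they were Cxcl2, Cxcl3, Cxcl4, Cxcl9, Cxcl11, Cxcl13, Cxcl14, Cxcl15, Cxcl17 and Xcl1. In the fit of all probes none of the 35 ligand probes left out of the main test passed (3 had an unadjusted p under 0.05, smallest adjusted p = 0.054).

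The authors' deposited table, which lists 6244 genes and does not name its test, holds 12 of the 52 genes. Among these, the authors' deposited table gives 3 genes an adjusted p under 0.05: Ccl7 (ratio 0.197, adjusted p = 0.0224), Cxcl10 (ratio 2.39, adjusted p = 0.0412) and Ccr6 (ratio 1.18, adjusted p = 0.0272). Ccr6 was not above background on any array here: its brighter probe read 9.2, 20.5 and 10 in MC38r and 12.3, 8.4 and 4.7 in MC38. The authors' deposited table gives Ccl5 a ratio of 6.73 (adjusted p = 0.127), Ccl2 0.265 (adjusted p = 0.0536) and Ccl4 2.85 (adjusted p = 0.158).

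Other genes of the pathway were taken from 5 lists with 83 genes beside the members, of which 81 were matched to the array and 50 tested. Of the 50, 15 rose and 18 fell in MC38r and 17 did not pass, with a median log2 change of -0.08. Of all probes tested 28.1% rose and 27.0% fell, and nothing particular to the pathway is read from these counts. On the list of ligands and ligand-like proteins outside the naming rule, 1 of 5 tested genes rose and 1 fell. Mif, a cytokine that binds Cxcr2 and Cxcr4, fell 1.53-fold by its brighter probe (14.31 ± 0.13 in MC38r and 14.93 ± 0.06 in MC38, adjusted p = 0.003). The mean of its 2 probes gave a larger fall, a log2 change of -0.93 against -0.61. Cmtm6, of the chemokine-like factor family, rose by 0.42 on the log2 scale (adjusted p = 0.031) but did not pass without MC38r replicate 2 (0.33) or 3 (0.4) or without MC38 replicate 1 (0.38) or 3 (0.45), or in an unmoderated test (adjusted p = 0.055). Cklf (0.29, adjusted p = 0.11), which passed as the mean of its probes (adjusted p = 0.04), and Cmtm7 (-0.16, adjusted p = 0.34) did not pass. Among atypical and related receptors Ccrl2, a binder of chemerin, was the 1 tested. It was detected on every MC38r array and no MC38 array, so it entered the test through MC38r alone, and its bound was 1.05-fold. The fitted log2 change of 0.34 did not pass (adjusted p = 0.12). It passed without MC38 replicate 1 (0.52), which is not independent support for a rise.

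Genes that couple receptors to the cell interior or switch them off gave 4 rises, 6 falls and 5 that did not pass among 15 tested, against 55.1% of all probes that passed. Gnai1 and Gng2 were above background in MC38 alone and so had to differ to enter the test. Gnai1, an inhibitory G protein subunit through which chemokine receptors signal, fell by at least 3.79-fold (4.5 ± 0.06 in MC38r and 7.16 ± 0.17 in MC38, adjusted p = 3.5e-07). The G protein subunit Gng2 fell by at least 1.44-fold, and Rgs16, which shortens G protein signals, fell by 1.16 on the log2 scale (adjusted p = 0.0044), which did not pass an unmoderated test (adjusted p = 0.062). The subunits Gng10 (1.22 on the log2 scale) and Gnb1 (0.75) rose, as did the receptor kinase Grk6 (0.56), which did not pass without MC38r replicate 1 (0.45) or without MC38 replicate 1 (0.52) or 3 (0.48), or in an unmoderated test (adjusted p = 0.066). Gnai2 (-0.7, adjusted p = 0.073) did not pass, but did without MC38r replicate 1 (-0.98), as the mean of its probes (-0.78) and in the series values (-0.76), and Grk5 (-0.19) did not pass.

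Genes that trim, shed or present chemokines were lower in MC38r in 9 of 11 tested cases, with no rise and a median log2 change of -1.33, where 27.0% of all probes tested fell. Mmp2 and Sdc3 were above background in MC38 alone and so had to differ to enter the test. Mmp2, a metalloproteinase known to cleave Ccl7 and Cxcl12, fell by at least 67.1-fold (4.87 ± 0.32 in MC38r and 11.31 ± 0.25 in MC38). Sdc3 and Sdc4, syndecans whose heparan sulphate chains hold chemokines at the cell surface, fell by at least 6.4-fold and by 5.51-fold. Ext2 (-0.42, adjusted p = 0.052), a heparan sulphate polymerase subunit, passed without MC38 replicate 2 (-0.46), with an offset of 50 (-0.4), with cyclic loess (-0.44), as the mean of its probes (-0.42) and in the series values (-0.34). The sulphotransferase Ndst1 (-0.17) did not pass. Adam17, chosen after its values were seen because it sheds Cx3cl1, fell 2.33-fold (7.24 ± 0.09 in MC38r and 8.46 ± 0.09 in MC38), and Adam10, which sheds Cx3cl1 and Cxcl16, was not above background on any array.

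Among regulators of chemokine transcripts 10 of 18 rose and 2 fell, and the median log2 change was 0.59, where 28.1% of all probes tested rose and 27.0% fell. Irf7, Stat2 and Tnfaip3 were above background in MC38r alone and so had to differ to enter the test. The interferon-responsive transcription factors Irf7 (at least 6.94-fold, 8.08 ± 0.12 in MC38r and 4.51 ± 0.12 in MC38) and Irf9 (8.61-fold, 9.3 ± 0.15 and 6.2 ± 0.08 in the same order) rose, as did Stat2 (at least 3.29-fold). Jun fell by 1.12 on the log2 scale (adjusted p = 0.0088), which did not pass in an unmoderated test (adjusted p = 0.089) or with all probes fitted (adjusted p = 0.059). The NF-kappaB precursor Nfkb1 fell by 0.57 (adjusted p = 0.014), but did not pass without MC38r replicate 2 (-0.44, adjusted p = 0.06), as the mean of its probes (-0.18) or in an unmoderated test (adjusted p = 0.059). The kinase subunit gene Chuk (0.31) and Irf1 (-0.26) did not pass. Relb, Rela and Tnfaip3, other NF-kappaB genes, were chosen after their values were seen. Relb rose by 1.07 (adjusted p = 0.0025) and Tnfaip3 by at least 1.93-fold, and Rela (0.07) did not pass. How these regulators relate to the ligands was not tested.

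**Figure D4:**
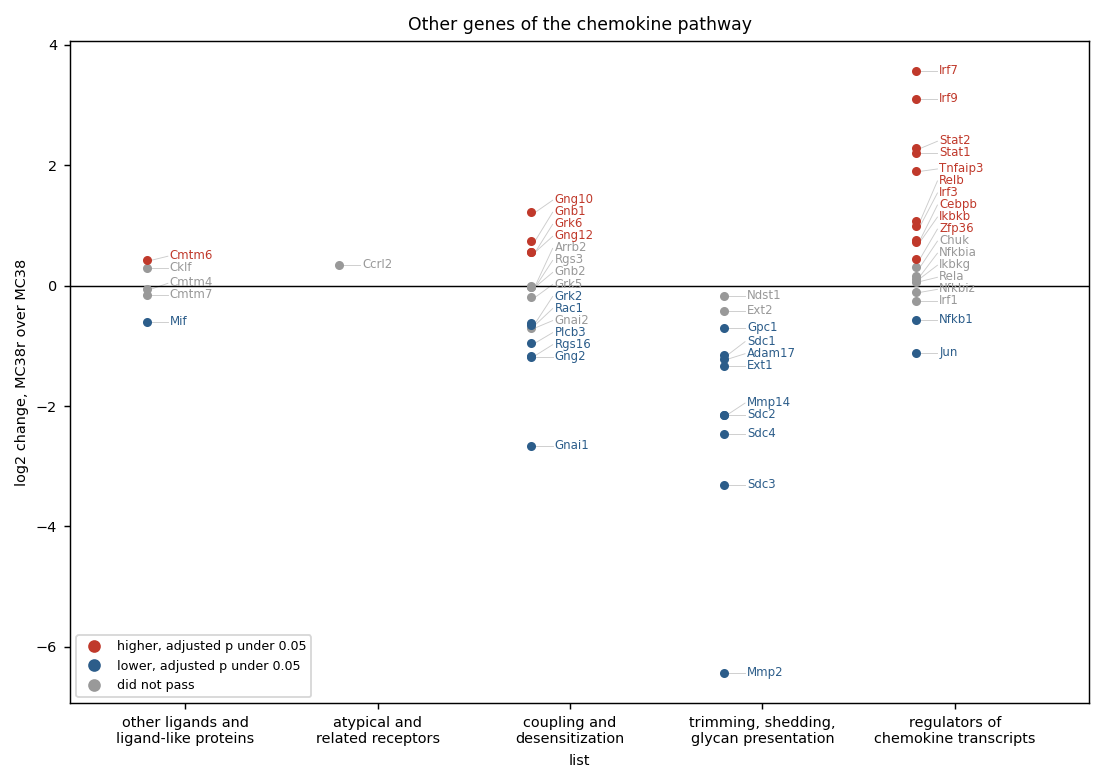
Log2 change, MC38r over MC38 (y axis), of the 50 tested pathway genes outside the naming rule, by list (x axis). Red points rose, blue points fell and grey points did not pass. The median is -1.33 for trimming, shedding and glycan presentation and 0.59 for the regulators.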

How the data were processed

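The probe table came from GenomeStudio 1.9.0 with quantile normalization, per the file headers. It holds deposited intensity values that are linear, with 35.03% to 35.1% of each array's probes under 0, which is a sign of earlier background subtraction. Detection is deposited as a score, read here as 1 minus the detection p. The authors deposited a table with a ratio, its log2 value and p-values, by a test not given in the sources used here.

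Signals were corrected again with the normexp method of limma 3.58.1 (nec, detection p-values, offset 16), log2-transformed and quantile-normalized in R 4.3.3. The filter kept each probe whose detection p was under 0.01 on 3 or more of the 6 arrays. The lines were compared probe by probe (lmFit, eBayes, group as the only term, two-sided), with Benjamini-Hochberg adjustment over all 13990 kept probes and a threshold of 0.05. The brightest kept probe stood for a gene. The script was tested on simulated data. Precision is limited by the number of arrays, and a log2 change had a median standard error of 0.16.

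The members and lists were chosen with earlier results of these data known. All members above background are named, and from each list up to 3 genes past the threshold in each direction and up to 2 that did not pass. Further list genes chosen after their values were seen are marked as such. List genes were matched by current or older symbols in RefSeq (GRCm38.p6). Alternatives changed the background correction, offset, normalization, probe filter, gene summary, test, replicate block and source of values, and left out each array. Deviations of same-numbered arrays from the line means correlated at -0.46, -0.44 and 0.3, so these arrays did not all deviate together. With 3 arrays per line such correlations depend on each other and cannot show that pairs are absent. The numbers were not used as pairs in the main test. Some genes that the rule takes in are not reported by name here.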

Additional observations from a re-analysis of the deposited data

How the results depend on the processing

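Of 209 alternative values for the 12 tested ligands, 206 kept their direction and their side of the threshold. The exceptions were Cxcl1 in the unmoderated test and Cx3cl1 without MC38 replicate 2 (both given above), and Cx3cl1 without both MC38r replicate 1 and MC38 replicate 2 (-0.51, adjusted p = 0.0087). That last setting was chosen after seeing the data, since these arrays deviate together (r = 0.62 over probes). The 2 ligands detected in MC38r alone and the 5 in MC38 alone had to differ to enter the test. Their part of the 206 is therefore not support for a difference. Settings that alter only the probe filter, the block or the test leave the fitted change of a tested probe as it was. When probes had to be above background on all 6 arrays, 1 member probe fell instead of 8, because the filter drops each probe at background in 1 line. With 1 array left out, 6 member probes rose each time and 8 to 9 fell, while of the other pathway genes 13 to 15 rose and 16 to 19 fell. The probe filter was not redone without the array left out. Since 9 of the 15 member probes were above background in 1 line alone, the steady member counts are not support for a difference.

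The sizes of changes near background depend on the offset. With an offset of 50 the fitted log2 change was -1.44 for Ccl2 (-2.3 with 16), -2.27 for Ccl7 (-3.34), 1.4 for Ccl4 (2.35), -0.87 for Ccl27 (-1.63), -0.62 for Ccl9 (-1.19), -1.02 for Cxcl12 (-1.8) and 0.55 for Cxcl16 (1.11). The series values gave -1.95 for Ccl2, -2.36 for Ccl7, 1.5 for Ccl4, -0.93 for Ccl27, -1.04 for Ccl9, -0.63 for Cxcl12 and 0.68 for Cxcl16. Ccl5, above background by little in MC38, had 2.47 with an offset of 50 (3.11 with 16) and 2.74 in the series values. For Ccl25 these were 1.26 (1.54 with 16) and 1.49.

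With a replicate block 6 member probes rose and 8 fell, as without it, and 14 other pathway genes rose and 17 fell. Same-numbered arrays did not all deviate together, so this block cannot tell whether other arrays share a batch. Most of these member probes also had to differ to enter the test. Cmtm6 (adjusted p = 0.059) was lost under the block among the genes named here. Signals this near background limit the receptors and most ligands to statements of detection.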
